A study of Homo sapiens with 6 samples.

Results

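The YAP/TEAD genes described here are 9 genes of the Hippo pathway chosen by name: YAP1, WWTR1, TEAD1, CYR61, CTGF, ANKRD1, AMOTL2, AJUBA and LATS2. All 9 of the 9 were found by symbol among the 31582 genes of the deposited count table, and all 9 passed the filter on low counts that left 16394 genes for testing. The table uses the older symbols CYR61 and CTGF for the genes now called CCN1 and CCN2, and WWTR1 encodes the protein known as TAZ. The choice of genes used no measured value of the comparison, but it was made with earlier results of these data known.

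The libraries came from MDA-MB-231, a human triple-negative breast cancer cell line of mesenchymal shape. Polyadenylated RNA was sequenced from cells in which CALR, the gene of the endoplasmic reticulum chaperone calreticulin, was knocked down (named shCALR in the labels, 3 libraries), and from control cells (named NTC, 3 libraries). Both groups were the same line in the same serum-containing medium, harvested below full confluency, with no other allele or agent named. Whether replicates were separate cultures, 1 clone or different hairpins is not in the labels, so the p-values measure the spread between these libraries, which may be technical. The series title places calreticulin in breast tumour progression through Wnt/β-catenin signalling. What is asked here is whether the transcripts of YAP, TAZ, TEAD1 and genes they are known to switch on differed between the groups.

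In the Hippo pathway, the kinases MST1/2 and LATS1/2 phosphorylate the co-activators YAP and TAZ, which then stay in the cytoplasm or are degraded. Unphosphorylated YAP and TAZ enter the nucleus and bind TEAD proteins on DNA, where they switch on genes of matrix proteins, growth control and the pathway's own inhibitors. Most of this control acts on the YAP and TAZ proteins, which RNA-seq does not measure. MDA-MB-231 cells carry a loss of the upstream Hippo regulator NF2 and are widely used as cells with high YAP and TAZ activity.

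Promoter sequence was examined first, because TEAD proteins recognise the core GGAATG. RefSeq (GRCh38.p14) promoter windows of 250 bases ending just before a transcription start were found for 7 of the 9 genes, 10 windows in all. The genes CYR61 and TEAD1 were not matched. GGAATG, or its reverse complement CATTCC on the other strand, lay in 5 of the 10 windows, in 5 genes, against 11.9% of all 35116 windows of the same length. The windows shown are those of CTGF, with the most copies, of YAP1, with 1 copy, and of LATS2, which has no copy and is the only gene of the 9 whose library groups did not overlap. The copies of GGAATG are in capitals and all lie on the gene's own strand. Each window is written 5′ to 3′ on the strand of its gene.
CTGF, chr6:131951373-131951622, minus strand: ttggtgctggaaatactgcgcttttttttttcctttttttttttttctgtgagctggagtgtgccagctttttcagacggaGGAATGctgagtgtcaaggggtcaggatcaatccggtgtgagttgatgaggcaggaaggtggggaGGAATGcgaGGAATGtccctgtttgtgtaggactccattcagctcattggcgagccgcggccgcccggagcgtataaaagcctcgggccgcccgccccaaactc
YAP1, chr11:102110197-102110446, plus strand: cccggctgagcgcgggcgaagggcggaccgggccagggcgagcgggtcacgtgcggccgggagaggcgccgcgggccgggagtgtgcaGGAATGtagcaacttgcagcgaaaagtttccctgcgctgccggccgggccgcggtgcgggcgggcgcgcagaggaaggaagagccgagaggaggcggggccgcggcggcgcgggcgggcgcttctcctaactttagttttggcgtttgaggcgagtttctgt
LATS2, chr13:21061587-21061836, minus strand: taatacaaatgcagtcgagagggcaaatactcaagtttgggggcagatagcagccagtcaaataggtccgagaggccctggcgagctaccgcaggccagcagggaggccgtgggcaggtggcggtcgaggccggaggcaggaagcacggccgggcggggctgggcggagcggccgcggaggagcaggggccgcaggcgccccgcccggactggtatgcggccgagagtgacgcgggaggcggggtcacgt

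CTGF held 3 copies, starting at −169, −104 and −95 when the base before the RefSeq start is counted as −1. Only 0.0826% of all windows, 29 of 35116, held 3 or more. ANKRD1 held 2 copies, at −220 and −128, where 0.94% of all windows hold 2 or more. YAP1 held 1 copy, at −162. The ANKRD1 window also held a match to TGANTCA, where N is any base, as 6.57% of all windows do. The match reads TGATTCA, and whether AP-1 binds these letters was not tested. AMOTL2 and AJUBA held 1 copy in 1 of their 2 windows, at −69 on the other strand and at −59. LATS2 held none in its window and WWTR1 none in either of its 2 windows. A match describes these letters only. No binding was measured, and enhancers, through which YAP and TAZ mostly act, were not examined.

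Depth was similar across the 6 libraries, at 34639090 to 42425310 counts. CALR, the targeted gene, was at 493, 66.4 and 110 CPM (counts scaled to a common library size) in knockdown replicates 1, 2 and 3, against 1213, 979 and 926 CPM in control replicates 1, 2 and 3. The knockdown libraries thus kept 47.5%, 6.39% and 10.6% of the control mean, the first far more than the others. The fitted log2 fold change was −2.22 ± 0.64 SE (adjusted p = 0.209, edgeR), which did not pass the threshold of 0.05. The 2 groups did not overlap, with an exact permutation p of 0.1 (2-sided), the smallest that 3 against 3 libraries can give. Across all genes the knockdown libraries differed more among themselves than the controls. Pairs of knockdown libraries gave a chi-square per gene of 105 to 199 and pairs of controls one of 11.8 to 48.1. The libraries also differed in how counts depended on the GC content of a transcript. The slope per 10 percentage points of GC was 0.15, −0.21 and 0.27 log2 units in knockdown replicates 1 to 3 and between −0.13 and −0.02 in the controls. Markers of mesenchymal breast cancer cells (VIM, CD44, MSN, CAV1, CAV2 and TGFBI) were present in all libraries, summing to 4249 to 5335 CPM in knockdown and 3088 to 3468 CPM in control. Most of each sum was VIM, at 2491 to 3177 CPM in knockdown and 1697 to 1840 CPM in control. The fitted log2 fold change was positive for all but CAV2, which averaged 66.0 CPM in knockdown and 88.6 CPM in control. The groups of CD44, CAV1, CAV2 and TGFBI overlapped. The 7 luminal markers summed to 94.4 to 150.3 CPM in knockdown and 99.6 to 107.9 CPM in control, most of it KRT19 (70.2 to 127.5 CPM over all 6 libraries), while ESR1 was at 0.343 to 0.596 CPM. Markers of fibroblasts and endothelium summed to 10.5 to 16.2 CPM in knockdown and 7.54 to 15.6 CPM in control, with 4 of 8 (PDGFRA, COL3A1, VWF and CDH5) too low to test. Of 5 blood cell markers 2 could be tested, CD14 and CD68, summing to 3.94 to 6.22 CPM in knockdown and 4.83 to 5.69 CPM in control. PTPRC and CD3E were too low to test, and HBB was not found by symbol.

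None of the 9 YAP/TEAD genes passed the adjusted threshold of 0.05 (edgeR's quasi-likelihood test, Benjamini-Hochberg adjustment over 16394 genes), and none had an unadjusted p under 0.05. By DESeq2's Wald test 530 genes passed, again 0 of these 9, and by limma-voom 0 genes passed. Over all genes tested with edgeR, 0% passed the adjusted threshold and 15.5% had an unadjusted p under 0.05, with 8.17% higher and 7.36% lower in knockdown. Fitted log2 fold changes ran from −0.54 for TEAD1 to 0.20 for AJUBA. They were negative for 8 of the 9 genes, with a median of −0.23, where the median of all genes was −0.001 and 50.1% were negative. The adjusted p values of the 9 genes lay between 0.333 and 0.896. The groups failed to overlap for 1 of the 9 genes, LATS2, which was lower in each knockdown library than in any control. That pattern, lower in knockdown, held for 11.2% of all tested genes, and its opposite, higher in knockdown, for 11.3%. The count for the 9 genes is close to that background.

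**Figure D1:**
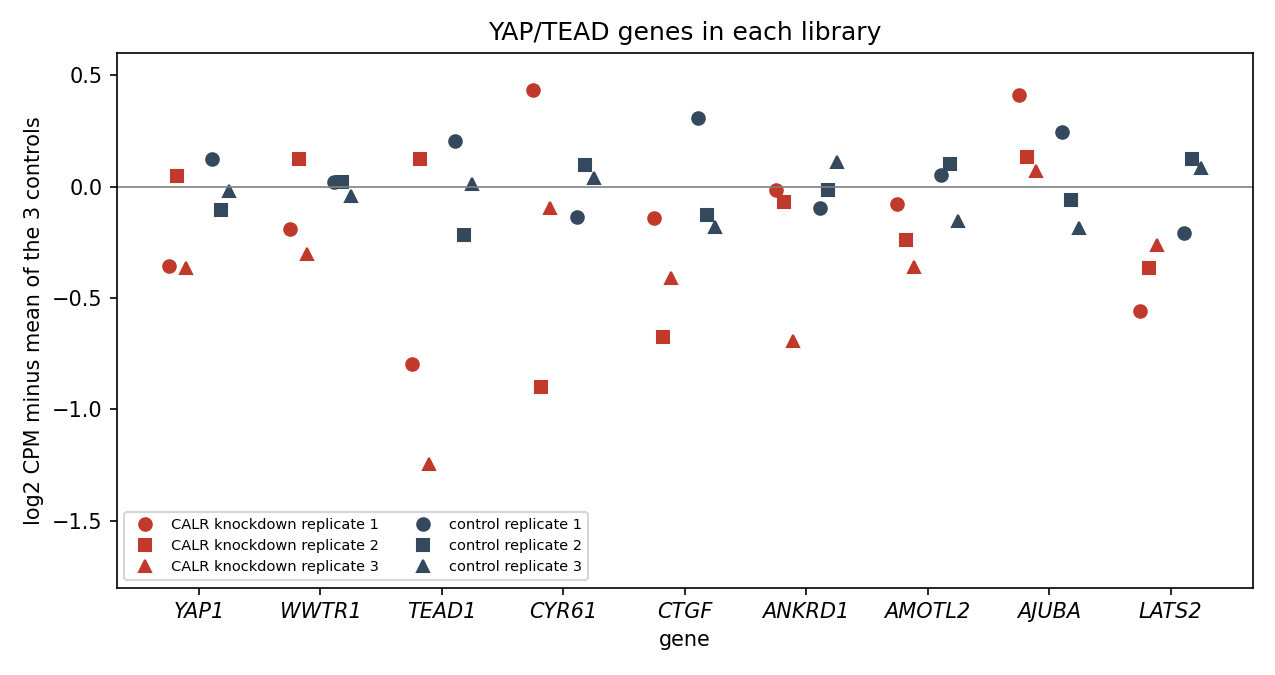
Expression of the 9 YAP/TEAD genes in each library. The y axis is log2 CPM minus the mean of the 3 controls, red symbols are the 3 CALR knockdown libraries and dark blue the 3 controls, and the symbol shape is the replicate number. The knockdown libraries spread widely for TEAD1 and CYR61, and LATS2 alone shows no overlap.

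YAP1 encodes the co-activator YAP. Its level was 102, 134.7 and 101.3 CPM in knockdown replicates 1 to 3 and 142.2, 121.4 and 128.8 CPM in control replicates 1 to 3. Knockdown replicates 1 and 3 lay below every control, while replicate 2 lay among them. The fitted fold was 0.862, with a 95% interval of 0.658 to 1.13 (log2 −0.22 ± 0.17 SE, unadjusted p = 0.24 and adjusted p = 0.547, edgeR). WWTR1, the gene of TAZ, was at 78.3, 97.34 and 72.44 CPM in knockdown and at 90.52, 90.65 and 86.66 CPM in control. Knockdown replicate 2 was the highest of all 6 libraries and the other 2 were the lowest, so that the controls sat inside the range of the knockdown group. Its fold was 0.926 (log2 −0.11 ± 0.17 SE, adjusted p = 0.76). Of all 36 pairs among the 9 genes, YAP1 and WWTR1 had the most similar profile over the 6 libraries. The root mean square difference between their centred log2 CPM values was 0.091. Their longest transcripts had 43.5% and 40.9% GC. With each library's GC trend removed, YAP1 was at −0.25, 0.01 and −0.17 log2 units from the control mean in knockdown replicates 1 to 3. WWTR1 was then at 0.07, 0.05 and 0.08, so the 2 profiles were less alike in knockdown. The part of GC content in their likeness was not tested.

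TEAD1, one of 4 TEAD genes and the DNA-binding partner of the co-activators, had the lowest fold of the 9 genes and one of the widest spreads. It was at 43.16, 81.72 and 31.63 CPM in knockdown and at 86.73, 64.51 and 75.73 CPM in control. Knockdown replicates 1 and 3 were well below the controls, but replicate 2 was above 2 of them. The fitted fold was 0.690, with an interval of 0.416 to 1.14 (log2 −0.54 ± 0.32 SE, unadjusted p = 0.13 and adjusted p = 0.435, edgeR). The value moved with the libraries included. It was −0.42 without knockdown replicate 1 and −0.26 without replicate 3. Without knockdown replicate 2 the log2 fold change of TEAD1 was −1.02, with an adjusted p of 0.02, in a fit where 2645 genes passed the adjusted threshold. Without that library and with each library's GC trend removed as well, a fit added after the data were seen, it was −0.74, with an adjusted p of 0.0571. Knockdown replicate 2 is the library with the opposite GC slope to the other 2 knockdown libraries and also the one with the least CALR. The part of GC content and of the remaining CALR in the level of TEAD1 was not tested. The means of the paralogues lay closer together: TEAD2 averaged 34.3 and 33.4 CPM in knockdown and control, TEAD3 47.0 and 43.6 CPM, and TEAD4 16.7 and 16.6 CPM.

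CYR61, a secreted matrix-associated protein and one of the most used readouts of YAP activity, was at 2479, 982.8 and 1717 CPM in knockdown and at 1669, 1965 and 1883 CPM in control. Knockdown replicate 1 was the highest of the 6 libraries, replicate 2 the lowest, and replicate 3 lay among the controls. The means were 1727 ± 748 CPM in knockdown and 1839 ± 153 CPM in control (SD, n = 3 each). The fold was 0.939, with an interval of 0.590 to 1.49, a range that takes in both directions (log2 −0.09 ± 0.30 SE, adjusted p = 0.896, edgeR). Without knockdown replicate 2 the sign turned, with a log2 fold change of 0.19. Within the knockdown group, CYR61 was highest in the library that kept the most CALR and lowest in the one that kept the least. That order did not hold over all 6 libraries, since the controls, with the most CALR, were below knockdown replicate 1. Knockdown replicate 2 also had the opposite GC slope to the other knockdown libraries. The part of GC content and of the remaining CALR in the level of CYR61 was not tested.

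CTGF, the other secreted target of the same CCN family, was at 108.6, 74.96 and 90.01 CPM in knockdown and at 148, 109.5 and 105.7 CPM in control. All 3 knockdown libraries were below the control mean, but replicate 1 lay just above the lowest control, so the groups overlapped. The fold was 0.753, with an interval of 0.548 to 1.04 (log2 −0.41 ± 0.20 SE, unadjusted p = 0.075 and adjusted p = 0.364, edgeR). The centred profiles of CYR61 and CTGF differed by 0.342 (root mean square, log2). ANKRD1, a cardiac ankyrin repeat protein of muscle and a strong YAP/TEAD target in many other cells, was at 659.5, 636.5 and 412.2 CPM in knockdown and at 624.1, 658.8 and 720.2 CPM in control. Here only knockdown replicate 3 was below the controls, and the other 2 lay within their range. Its fold was 0.853 (log2 −0.23 ± 0.20 SE, adjusted p = 0.588), and without knockdown replicate 3 its log2 fold change was −0.03. The 3 target genes therefore each had their lowest value in a knockdown library, replicate 2 for CYR61 and CTGF and replicate 3 for ANKRD1.

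The remaining genes restrain the pathway or feed back on it. AMOTL2, an angiomotin that binds YAP and holds it at junctions, and itself a YAP target, was at 70.44, 62.96 and 57.95 CPM in knockdown and at 77.08, 79.8 and 66.84 CPM in control. Knockdown replicates 2 and 3 lay below all controls and replicate 1 above the lowest. The fold was 0.855 (log2 −0.23 ± 0.16 SE, adjusted p = 0.502). AJUBA, a LIM protein that binds LATS kinases and limits their action on YAP, was the only gene of the 9 with a positive value. It was at 163.9, 135.1 and 129.4 CPM in knockdown and at 146.3, 118.2 and 108.3 CPM in control. The groups overlapped, since control replicate 1 was above 2 knockdown libraries. Its fold was 1.15, with an interval of 0.869 to 1.52 (adjusted p = 0.587).

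LATS2, the kinase that phosphorylates YAP and TAZ and is itself switched on by them, was at 22.85, 26.13 and 28.06 CPM in knockdown and at 29.15, 36.73 and 35.67 CPM in control. Every knockdown library was below every control, though the highest of the first and the lowest of the second were close. The means were 25.7 ± 2.63 CPM and 33.9 ± 4.10 CPM (SD, n = 3 each). The fold was 0.759, with an interval of 0.571 to 1.01 (log2 −0.40 ± 0.18 SE, unadjusted p = 0.056 and adjusted p = 0.333, edgeR). An exact permutation test on the 3 against 3 values gave the smallest p it can reach, 0.1. LATS2 did not pass the test across genes.

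**Figure D2:**
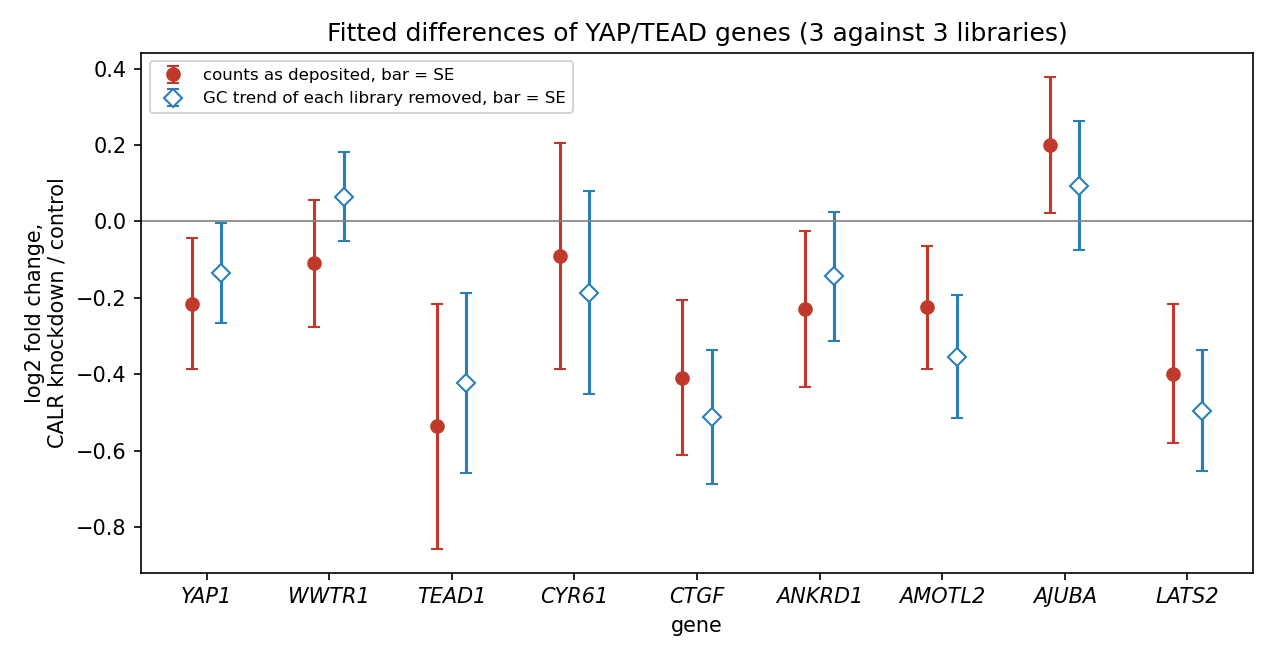
Fitted log2 fold change, CALR knockdown over control, for the 9 YAP/TEAD genes from 3 against 3 libraries. Filled circles are the fit to the deposited counts and open diamonds the fit after each library's GC trend was removed, with bars of 1 SE. Circles of 8 of the 9 genes lie below 0, and WWTR1 changes side between the fits.

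Several of these values moved in the fit with each library's GC trend removed. The part of GC content in them was not tested. The longest GENCODE transcripts of WWTR1, TEAD1, ANKRD1 and YAP1 had 40.9% to 43.5% GC, and those of CYR61, CTGF, LATS2, AJUBA and AMOTL2 50.3% to 56.7%. With the GC trend of each library removed, CTGF was at a log2 fold change of −0.51 ± 0.18 SE (unadjusted p = 0.018, adjusted p = 0.193, edgeR). LATS2 was at −0.50 ± 0.16 SE (unadjusted p = 0.013, adjusted p = 0.176) and AMOTL2 at −0.35 ± 0.16 SE (unadjusted p = 0.057). For CTGF, AMOTL2 and LATS2 each corrected knockdown value was then below each control, as for 12.3% of all tested genes. In that fit 18.2% of all tested genes had an unadjusted p under 0.05, and 2 of the 9 genes did. WWTR1 changed sign, to 0.07 ± 0.12 SE, and its 3 knockdown libraries then lay close together, 0.07, 0.05 and 0.08 log2 units above the control mean. TEAD1 remained uneven, at −0.57, 0.06 and −0.90 in knockdown replicates 1 to 3. No gene of the 9 passed the adjusted threshold in this fit either.

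The knockdown libraries differed among themselves more than the controls did for 7 of the 9 genes, against 82.5% of all tested genes. The highest knockdown CPM was 2.58 times the lowest for TEAD1 and 2.52 times for CYR61, while the same ratio among controls was 1.34 and 1.18. The median gene had ratios of 1.63 in knockdown and 1.25 in control. ANKRD1 had a ratio of 1.60 in knockdown and 1.15 in control. AMOTL2, LATS2 and AJUBA were the steadiest in knockdown, with ratios of 1.22, 1.23 and 1.27. TEAD1 and CYR61 were the pair with the least similar profiles, with a root mean square difference of 0.796 log2 units. This measure grows with a gene's own spread, which in knockdown was widest for these same genes. Library by library, the median difference of the 9 genes from the control mean was −0.14, −0.07 and −0.36 log2 units in knockdown replicates 1 to 3, and between −0.02 and 0.05 in the controls.

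Expression levels per transcript length, as FPKM, the count of fragments scaled to gene length and depth that the authors deposited, set the genes far apart. In control cells CYR61 was at 786 ± 82.9 FPKM (SD, n = 3), ranking at 49 of 31356 genes, and ANKRD1 at 330.2 ± 32.5 FPKM, ranking at 135. CTGF followed at 50.4 ± 8.31 FPKM. Below these came AJUBA at 25.4 ± 3.30 FPKM, YAP1 at 22.7 ± 1.38, WWTR1 at 16.3 ± 0.328, AMOTL2 at 15.2 ± 1.22, TEAD1 at 7.88 ± 1.02 and LATS2 at 6.02 ± 0.864. Neighbours in this order whose control ranges overlapped were AJUBA and YAP1, and WWTR1 and AMOTL2. All other neighbours were apart in the controls. The order of the means was the same in knockdown, but TEAD1 (4.08, 8.47 and 2.83 FPKM) and LATS2 (3.67 to 4.60 FPKM) overlapped there, as did YAP1 (15.1 to 23.2 FPKM) and WWTR1 (11.3 to 17.6 FPKM). CYR61 and ANKRD1 stayed far above the other 7 genes in every library, CYR61 at 416.6 to 958.4 FPKM.

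**Figure D3:**
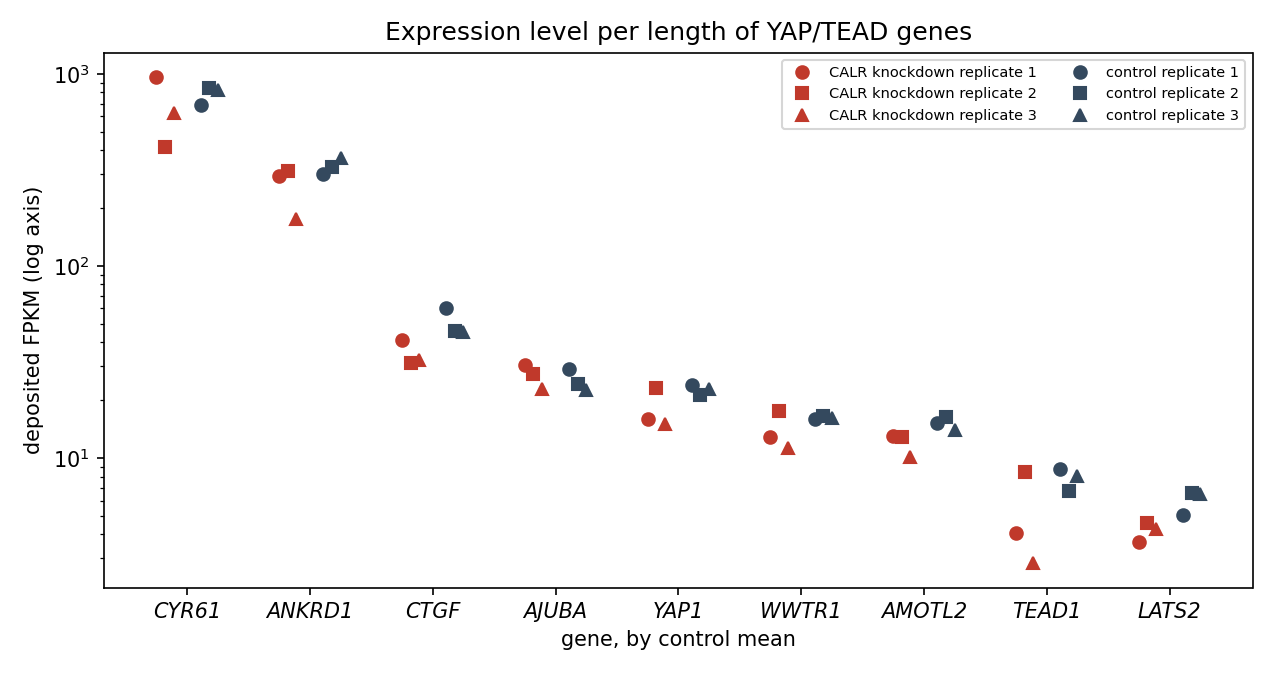
Deposited FPKM of the 9 YAP/TEAD genes in each library, on a log axis, ordered by the control mean. Red symbols are the 3 CALR knockdown libraries, dark blue the 3 controls, and shapes give the replicate number. CYR61 and ANKRD1 lie at 174.5 FPKM or more in all 6 libraries, and LATS2 and TEAD1 at 8.78 FPKM or less.

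The genes with the profiles most like CYR61 over the 6 libraries, out of 12417 with a mean log2 CPM of at least 1, were SRD5A3, ZNF710 and MESDC1, with root mean square differences of 0.071, 0.085 and 0.101 log2 units. All 3 had their lowest value in knockdown replicate 2, as CYR61 did. The genes most like CTGF were NF2, TIAM1 and SLC25A35, at 0.047, 0.061 and 0.069. NF2 encodes merlin, the upstream Hippo regulator, and was at 7.20, 5.02 and 5.69 CPM in knockdown and at 9.31, 7.52 and 6.78 CPM in control. It had 202 to 352 counts a library, and its groups overlapped (unadjusted p = 0.13, edgeR). The line carries a loss of NF2, as said above, and merlin protein was not measured. The likenesses to CYR61 and CTGF are descriptions over 6 libraries, 3 of each group.

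Other genes of the pathway were read in lists, each count to be set beside the share of all tested genes. Among Hippo kinases, scaffolds and upstream regulators, 19 of 20 genes could be tested (DCHS1 could not). None passed the adjusted threshold, and 1 was lower with an unadjusted p under 0.05: MAP4K3, a kinase that acts on LATS, at a log2 fold change of −0.57 with overlapping groups (7.36% of all genes were lower with such a p). The list's median was −0.11, and between −0.27 and 0.03 over the 20 alternative settings. MAP4K3 was named after its value was seen. Among proteins that bind YAP, TAZ, LATS or TEAD, 11 of 13 genes were tested (not AMOT and VGLL1), with a median of 0.07 (−0.08 to 0.18 over the alternatives). An unadjusted p under 0.05 was found for 2 higher and 2 lower genes, where 8.17% of all genes were higher and 7.36% lower. None passed the adjusted threshold.

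VGLL3, a TEAD co-factor that competes with YAP for the same surface, had the largest difference in that list. It averaged 12.7 ± 3.89 CPM in knockdown and 28.6 ± 1.49 CPM in control (SD, n = 3 each), with every knockdown library below every control. Its log2 fold change was −1.17 ± 0.24 SE (unadjusted p = 0.00098, adjusted p = 0.152, edgeR). WTIP, a LIM protein of the AJUBA family, was at 6.85 ± 2.16 CPM in knockdown and 13.5 ± 1.98 CPM in control (log2 −0.97 ± 0.28 SE, adjusted p = 0.207). AMOTL1, the paralogue of AMOTL2, was at 65.1 ± 4.96 and 48.9 ± 2.31 CPM (log2 0.41 ± 0.15 SE, adjusted p = 0.266). SCRIB, a polarity scaffold, was at 98.0 ± 7.87 and 75.1 ± 3.20 CPM (log2 0.38 ± 0.15 SE, adjusted p = 0.278). The rule by which these 4 genes were named required groups that did not overlap. Of the 11 tested genes of the list, 4 were higher and 2 lower with groups apart, against 11.3% and 11.2% of all tested genes. VGLL3, a transcript of 37.3% GC, was at −0.90 with the GC trend removed. In that fit WTIP was at −1.145 and AMOTL1 at 0.365. SCRIB, a transcript of 66.5% GC, was at 0.304 there, with an unadjusted p of 0.067 (edgeR).

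Of 23 other published YAP/TAZ target genes, all tested, 5 had an unadjusted p under 0.05 and were higher, 0 were lower with such a p, against 8.17% and 7.36% of all genes. None passed the adjusted threshold. The list's median was 0.01, and −0.18 to 0.17 over the alternatives. By direction, 12 were positive and 11 negative. TGFB1, a secreted cytokine, was at 195 ± 43.1 CPM in knockdown and 125 ± 8.77 CPM in control (log2 0.64 ± 0.19 SE, adjusted p = 0.211, edgeR). F3, the tissue factor of blood clotting, was at 503 ± 103 and 360 ± 12.6 CPM (log2 0.48 ± 0.18 SE, adjusted p = 0.274). The rule by which both were named required groups that did not overlap. In this list 2 genes were higher and 0 lower with groups apart, against 11.3% and 11.2% of all tested genes. FJX1, AXL and MYOF were the other 3 higher genes, named after their values were seen, and their groups overlapped. NOV, the third CCN family gene with enough counts, had a positive value where that of CTGF was negative. It was at 99.3 ± 21.8 CPM in knockdown and 55.9 ± 5.16 CPM in control (log2 0.83 ± 0.20 SE, adjusted p = 0.172). WISP2, WISP3 and ANKRD2 were too low to test, and ANKRD23 was tested and did not reach an unadjusted p under 0.05. WISP1 was not found by symbol in the deposited count table.

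Actin and MRTF/SRF genes, which like YAP respond to tension in the cytoskeleton, formed the last list. Of 20 tested genes (CNN1 was too low), 5 had an unadjusted p under 0.05, all 5 of them higher and with groups that did not overlap, and 0 were lower with such a p. Of all genes, 8.17% were higher with such a p and 11.3% were higher with groups apart. The median was 0.16, but 0.04 without knockdown replicate 1, 0.41 without replicate 2 and 0.008 with library size alone. With the GC trend removed and without knockdown replicate 1 it was −0.008. None passed the adjusted threshold. MYL9, a myosin light chain, was at 209 ± 54.3 CPM in knockdown and 93.6 ± 22.7 CPM in control (log2 1.16 ± 0.25 SE, adjusted p = 0.159, edgeR). FLNA, an actin cross-linker, was at 1027 ± 154 and 549 ± 104 CPM (log2 0.90 ± 0.20 SE, adjusted p = 0.159). CNN2, a calponin, and VCL, a focal adhesion protein, had log2 fold changes of 0.61 ± 0.17 and 0.53 ± 0.21 SE. The fifth was ACTG1, named after its value was seen. By DESeq2's Wald test, 530 of the 16394 genes passed the adjusted threshold. Of the genes named from these lists, VGLL3, WTIP, NOV, MYL9, FLNA and CNN2 did, with adjusted p values of 0.00233 to 0.0466. AMOTL1, SCRIB, TGFB1, F3 and VCL did not. These genes were named by their values in the same counts, so a second test on those counts is no independent support.

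**Figure D4:**
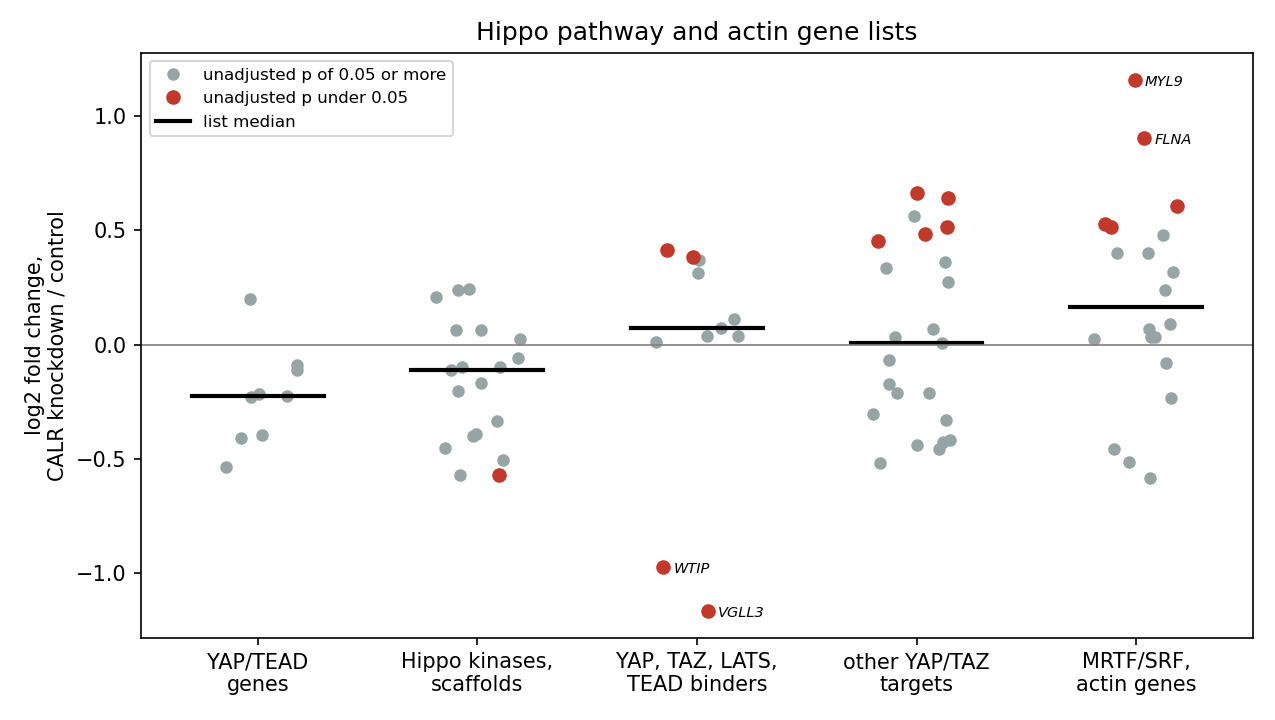
Log2 fold change, CALR knockdown over control, of the 9 YAP/TEAD genes and 4 context lists. Each point is a tested gene, red where the unadjusted p is under 0.05, and black bars are list medians. The 9 YAP/TEAD genes have no red point, VGLL3 and WTIP lie lowest and MYL9 and FLNA highest.

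The genes lie on GRCh38 as annotated by GENCODE 29 at chr11:102110461-102233423 (YAP1), chr3:149517235-149736714 (WWTR1), chr11:12674591-12944483 (TEAD1), chr1:85580761-85583962 (CYR61), chr6:131948176-131951373 (CTGF), chr10:90912096-90921276 (ANKRD1), chr3:134355874-134375479 (AMOTL2), chr14:22971174-22982642 (AJUBA) and chr13:20973032-21061547 (LATS2). Genes on the opposite strand overlap 9.97% of the exon bases of YAP1, 9.45% of those of WWTR1 (WWTR1-AS1) and 8.34% of those of CTGF. Whether the authors' counting used strand is not given in the sources used here, so reads of those overlaps cannot be told apart. Same-strand overlap touched AMOTL2 (3.12%) and AJUBA (0.836%).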

How the data were processed

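RNA-seq libraries of 3 CALR knockdown and 3 control samples were analysed from 2 tables of the whole series. Libraries were strand-specific and poly(A)-selected and were sequenced on an Illumina instrument, per the labels' protocols. Per the submitters' processing notes, FastQC 0.9.5 and TopHat2 were used with GRCh38. The sources used here do not give the counting program, its strand setting or its annotation. The raw counts per gene and the FPKM values are as the authors deposited them. FPKM served for levels between genes and for alternative fits.

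Counts were fitted with edgeR 4.0.16 (quasi-likelihood test, TMM scaling, default filter on low counts, R 4.3.3), knockdown against control, with Benjamini-Hochberg adjustment over 16394 genes and a threshold of 0.05. CPM values use TMM-scaled library sizes. Intervals of 95% come from the fit. Single values were compared with 2-sided exact permutation tests over libraries. GC content came from the longest GENCODE 29 transcript, for 16294 tested genes (99.4%), and its trend was removed from each library in an alternative fit. The fit was tested on simulated data. Alternatives used DESeq2 1.42.0, limma 3.58.1, other scalings and filters, FPKM with pseudocounts of 1 and 0.1, and each library left out.

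Besides the 9 genes and CALR, up to 4 genes of each list were named, taken by size of the log2 fold change among those whose groups did not overlap, with mean log2 CPM 1 or more and unadjusted p under 0.05. The 3 genes with profiles nearest to CYR61 and to CTGF were named too. Genes and lists were chosen with earlier results of these data known. Promoter windows came from RefSeq GRCh38.p14, and gene positions from GENCODE 29.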

Additional observations from a re-analysis of the deposited data

How the results depend on the processing

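The median log2 fold change of the 9 YAP/TEAD genes stayed negative in all 20 alternative settings, between −0.35 and −0.13, and library size alone moved the median of all genes to −0.13. The number of all genes past the adjusted threshold was 0, against 530 with DESeq2, 988 with no filter on low counts and 0 to 2645 when 1 library was left out. With the GC trend removed and knockdown replicate 1, 2 or 3 left out it was 2, 560 or 336. The number of the 9 genes with an unadjusted p under 0.05 was 0, against 1 with no filter, 2 with library size alone, with the filter set at 1 CPM in every library, with FPKM and either pseudocount, and with the GC trend removed. It was 3 with the GC trend removed and a replicate block, 0 to 3 when 1 library was left out, and 3, 4 or 1 with the GC trend removed and knockdown replicate 1, 2 or 3 left out. With 1 library left out, 0 to 1 of the 9 passed the adjusted threshold. The log2 fold change of CALR, −2.22 with an adjusted p of 0.209, kept its side of the threshold in 18 of 20 alternatives. It was −2.20 with no filter (adjusted p = 1.45e-19, edgeR) and −3.69 with the GC trend removed and without knockdown replicate 1 (adjusted p = 0.00967), past the threshold in both, and −3.56 to −1.78 when 1 library was left out. WWTR1 turned positive with the GC trend removed, at 0.065, at 0.066 with a replicate block as well, and at 0.065, 0.071 and 0.060 without knockdown replicate 1, 2 and 3. CYR61 turned to 0.19 without knockdown replicate 2 (−0.45 to 0.19 when 1 library was left out), and to 0.065 with the GC trend also removed. ANKRD1 turned to 0.001 with the GC trend removed and without knockdown replicate 3. The causes were not tested. Same-numbered libraries of the 2 groups did not deviate together (correlations 0.20, −0.12 and −0.22) and no label pairs them. A replicate block gave 0 genes past the adjusted threshold, 0 of the 9 at an unadjusted p under 0.05 and a median of −0.23. Precision is limited by 3 libraries a group and by the spread of the knockdown libraries.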

Other observations

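Ratios of FPKM levels between related genes were computed within each library, which sets aside the scaling of the library. The 7 pairs were chosen after the values of single genes were seen. AMOTL2 was at 1.94, 1.76 and 1.84 times the FPKM of its paralogue AMOTL1 in knockdown replicates 1 to 3 and at 3.13, 3.02 and 2.48 times in control. The groups did not overlap, with an exact permutation p of 0.1 (0.35 adjusted over the 7 ratios), the smallest possible. CTGF was at 1.09, 0.699 and 1.30 times the FPKM of NOV, another CCN family gene, in knockdown and at 2.58, 2.20 and 2.18 times in control, with the same exact permutation p. AMOTL1 and NOV had been named for groups that did not overlap in these same libraries, both higher in knockdown. The separation of both ratios was thus partly set by that choice, and their p-values are no independent support. The other 5 ratios overlapped between the groups. Among them, YAP1 was at 1.24, 1.32 and 1.33 times the FPKM of WWTR1 in knockdown and at 1.50, 1.28 and 1.42 times in control. TEAD1 made up 10.4%, 21.2% and 7.57% of the summed FPKM of TEAD1 to TEAD4 in knockdown, and 20.4%, 15.3% and 19.0% in control, so that knockdown replicate 2 was above all controls and the other 2 below them. Such ratios do not set aside a library's GC slope. The transcript of TEAD1 had 41.3% GC and those of TEAD2 to TEAD4 58.4% to 60.4%. The part of GC content in this share was not tested.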
